A study of Mus musculus with 16 samples.

Results

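The effect of the Dp16 duplication on hippocampal gene expression was examined in 10 of the 16 libraries of the series, those with low levels of thalamus marker genes. The libraries were chosen by measured values: the mean log2 CPM (read counts adjusted for sequencing depth) of the thalamus markers lay between 3.23 and 3.65 in the 10 libraries and between 5.08 and 5.71 in the 6 libraries left out. The highest values inside the set were 3.65 in WT replicate 2 and in 5xFAD-Dp16 replicate 11, and the lowest value outside it was 5.08 in 5xFAD replicate 13. The set holds 6 libraries from carriers of the duplication, 3 Dp16 (replicates 3, 5 and 12) and 3 5xFAD-Dp16 (replicates 8, 9 and 11). It holds 4 libraries from non-carriers, 3 wild type (WT, replicates 2, 7 and 16) and 1 5xFAD (replicate 10). The 6 libraries left out are 2 from carriers (Dp16 replicate 14 and 5xFAD-Dp16 replicate 1) and 4 from non-carriers (WT replicate 4 and 5xFAD replicates 6, 13 and 15).

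All mice were 9 months old and untreated, and polyadenylated RNA of the hippocampus was sequenced. The carriers of the set were 3 females and 3 males and the non-carriers 2 females and 2 males. Dp16 mice carry an extra copy of the stretch of chromosome 16 that matches a large part of human chromosome 21, so each of its genes is present in 3 copies in every cell. 5xFAD mice carry human transgenes with familial Alzheimer mutations, driven by regulatory sequence of the neuronal gene Thy1. The labels name the strain, C57BL/6J, for the wild-type mice alone, so that the duplication and any difference in strain background between carriers and non-carriers cannot be told apart. The labels do not give litters, breeding or batches. The only 5xFAD library without the duplication stands for its group alone, so each value that compares 5xFAD-Dp16 with 5xFAD has no replicate on the side of 5xFAD.

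A gene present in 3 copies in place of the usual pair is read from 1 more template, and its messenger RNA is known to follow copy number in most tissues unless its level is buffered. The segment carries genes long studied in Down syndrome: App, the precursor of amyloid beta; Dyrk1a, a kinase; Rcan1, an inhibitor of calcineurin; Sod1, a superoxide dismutase; and 4 cytokine receptor subunits. Genes elsewhere keep their normal copy number.

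Total gene counts of the 10 libraries lay between 16922937 and 25308693. Markers of hippocampal pyramidal cells (mean log2 CPM 6.26 to 6.68) and of dentate granule cells (5.47 to 5.91) were present in every one of the 10. The choroid plexus, the secretory tissue of the ventricles, was unevenly present: its marker score ran from 1.09 to 5.23 in carriers and from 1.41 to 6.59 in non-carriers, highest in WT replicate 7. Thy1 stood at 2370 to 2750 CPM in the 4 libraries with the transgenes and at 682 to 904 CPM in the other 6, which matches the transgene labels.

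**Figure D1:**
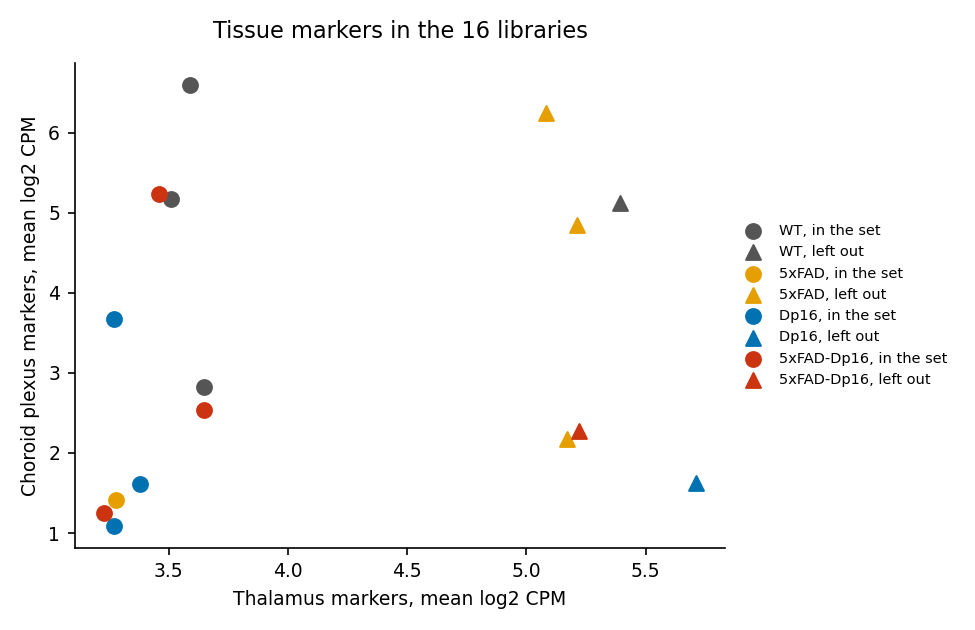
Mean log2 CPM of the thalamus markers (horizontal axis) against that of the choroid plexus markers (vertical axis) in the 16 libraries. Colours give the group, circles the 10 libraries of the set and triangles the 6 left out. The circles lie between 3.23 and 3.65 on the horizontal axis and are spread from 1.09 to 6.59 on the vertical axis.

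Of the 98 tested genes of the segment, 49 were called higher in the carriers, and the median fold change lay close to the 1.5-fold that copy number gives. The segment was taken as Lipi to Zbtb21, chr16:75540514-97962622 of GRCm38. The difference from the wild-type mean was taken over the 68 better-measured segment genes (mean log2 CPM at least 3), and its median on the log2 scale was 0.56, 0.56 and 0.58 for Dp16 replicates 3, 5 and 12. For 5xFAD-Dp16 replicates 8, 9 and 11 it was 0.56, 0.52 and 0.48. It was 0, 0.02 and -0.03 in WT replicates 2, 7 and 16 and -0.06 in 5xFAD replicate 10. The values of the carriers and the non-carriers are far apart, and each library matches its label. In 2 carriers that were not used to define this comparison, Dp16 replicate 14 and 5xFAD-Dp16 replicate 1, it was 0.55 and 0.54, and in the 4 left-out non-carriers it lay between -0.03 and 0.05.

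Of 384 segment genes in the count table, 98 were tested (88 of them protein coding) and 286 had too few counts, 177 of these with no count at all in the 10 libraries. Carriers were compared with non-carriers in edgeR with the transgenes as a covariate, and a gene was called at an adjusted p (Benjamini-Hochberg) below 0.05 over all 16284 genes tested. Calls were made for 0.411% of genes in the higher direction (67 genes) and for 0.197% in the lower direction (32 genes). Of the 98 segment genes, 49 (50%) were called higher and 0 lower, 91 had a positive fold change, and 58 had every carrier above every non-carrier. The genes of the segment thus make up 49 of the 67 genes called higher. Of all tested genes outside the segment, 47.3% had a positive fold change and 0.568% had every carrier above every non-carrier. Calls followed the level: 49 of these 68 better-measured genes (72.1%) were called, and 0 of the 30 weaker ones. The median log2 fold change over the 98 genes was 0.54 (1.45-fold, quartiles 0.40 and 0.68), against -0.01 over the 16186 genes outside the segment and 0 over the 396 genes elsewhere on chromosome 16. For 83 of the 98 genes the 95% interval held a 1.5-fold change. It lay above 1.5-fold for 6 genes and below it for 9. The intervals are not adjusted for the number of genes, so some would miss a true 1.5-fold change by chance.

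**Figure D2:**
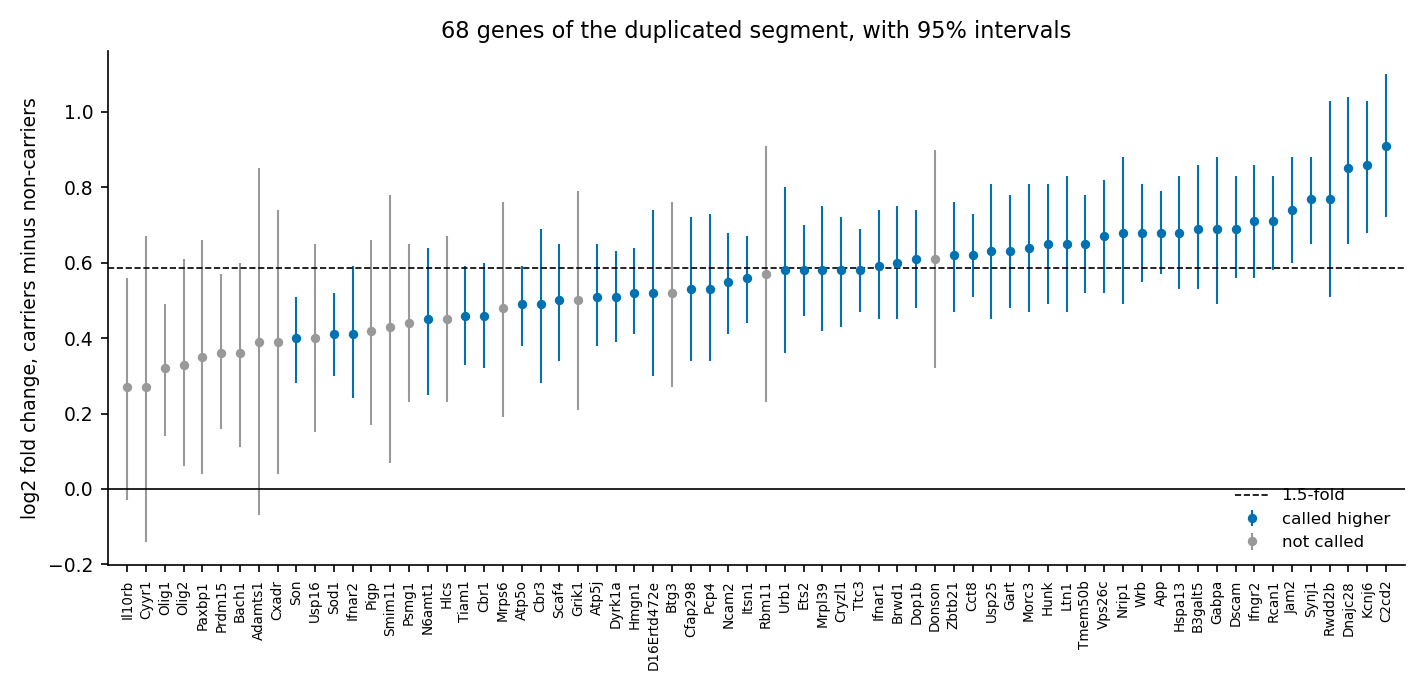
Log2 fold change of carriers over non-carriers (vertical axis) for the 68 tested segment genes with a mean of at least 8 CPM in carriers and a 95% interval narrower than 1, ranked along the horizontal axis. Points are estimates, bars 95% intervals, blue the 49 called genes and the dashed line 1.5-fold. The points run from 0.27 to 0.91 and many bars cross the dashed line. The plotted genes are not the same set as the 68 better-measured genes of the text. Clic6 (-1.58), which is among those, is not plotted because of its wide interval. The level limit of the plot was set on the carriers, where most segment genes are higher.

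By role, the counts below are to be set against the 50% called over the whole segment. Of the genes of amyloid production and endocytosis 4 of 7 tested were called, with a median of 0.67. App, the amyloid precursor, stood at 1970, 1960 and 1900 CPM in the WT libraries and 1790 in 5xFAD replicate 10, against 3170, 3110 and 3080 in the Dp16 and 2980, 2900 and 2740 in the 5xFAD-Dp16 libraries. The groups did not overlap, and the fold change was 0.68 ± 0.052 on the log2 scale (SE; 1.6-fold, adjusted p = 7.25e-06). Synj1, the phosphatase synaptojanin that uncoats synaptic vesicles, had the smallest p of the segment. It stood at 520, 468, 473 and 415 CPM in the non-carriers and between 666 and 830 (median 782) in the carriers, a log2 fold change of 0.77 ± 0.0556 (adjusted p = 7.08e-06). Its whole 95% interval, 0.65 to 0.88, lies above 1.5-fold, though the gene was named for its small p and the interval is not adjusted for that. Itsn1, the endocytic scaffold intersectin, rose by 0.56 ± 0.0559 (adjusted p = 4.14e-05). Bace2, a protease that can cut the amyloid precursor, was weak, at 7.72 ± 2.6 CPM in carriers and 4.63 ± 1.56 in non-carriers (SD, n = 6 and 4), and did not pass (adjusted p = 0.43).

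Among the 4 cytokine receptor subunits, 3 were called higher and all 4 had a positive fold change. Ifnar1, a subunit of the type I interferon receptor, stood at 34.8, 35.3 and 38.3 CPM in WT and 37.2 in 5xFAD replicate 10, and between 49 and 62.3 (median 55.5) in the carriers, a log2 fold change of 0.59 ± 0.0687 (adjusted p = 0.000153). Ifngr2, a subunit of the interferon gamma receptor, rose by 0.71 ± 0.0696 (adjusted p = 3.51e-05), from 62.1 to 69.8 CPM in the non-carriers to 90.2 to 116 in the carriers. Both were free of overlap. Ifnar2, the partner of Ifnar1, overlapped: 17.7, 20.8 and 18 CPM in WT and 24.9 in 5xFAD replicate 10, against 22.7 to 32.9 in the carriers. It passed with a smaller rise (0.41 ± 0.0811, adjusted p = 0.0251), and that call was lost when any 1 of WT replicate 2 (adjusted p = 0.0565), WT replicate 16 (0.086), Dp16 replicate 3 (0.0707), 5xFAD-Dp16 replicate 9 (0.0546) or 5xFAD replicate 10 (0.0856) was left out. Il10rb, a subunit of the interleukin 10 receptor, had a log2 fold change of 0.27 ± 0.138 that did not pass (adjusted p = 0.501).

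Of the kinases and signalling proteins, 5 of 9 tested genes were called higher and 7 had a positive fold change. Dyrk1a, a kinase with roles in brain growth, stood at 106, 95.4 and 103 CPM in WT and 95 in 5xFAD replicate 10, and between 134 and 150 (median 142) in the carriers. No value overlapped, and the log2 fold change was 0.51 ± 0.0574 (adjusted p = 0.000112). Rcan1 rose by 0.71 ± 0.0607 (adjusted p = 1.86e-05), from 45.4 ± 2.44 CPM in the non-carriers to 74.8 ± 3.55 in the carriers (SD, n = 4 and 6). Of 11 tested genes for calcineurin subunits, its other regulators and the NFAT factors it acts on, 0 were called in edgeR. Over all genes outside the segment 0.309% were called, so 0 of 11 is near that share. The median of the 11 was 0.05, and the lead member was Rcan2, with a log2 fold change of 0.21 ± 0.0944 (adjusted p = 0.417).

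**Figure D3:**
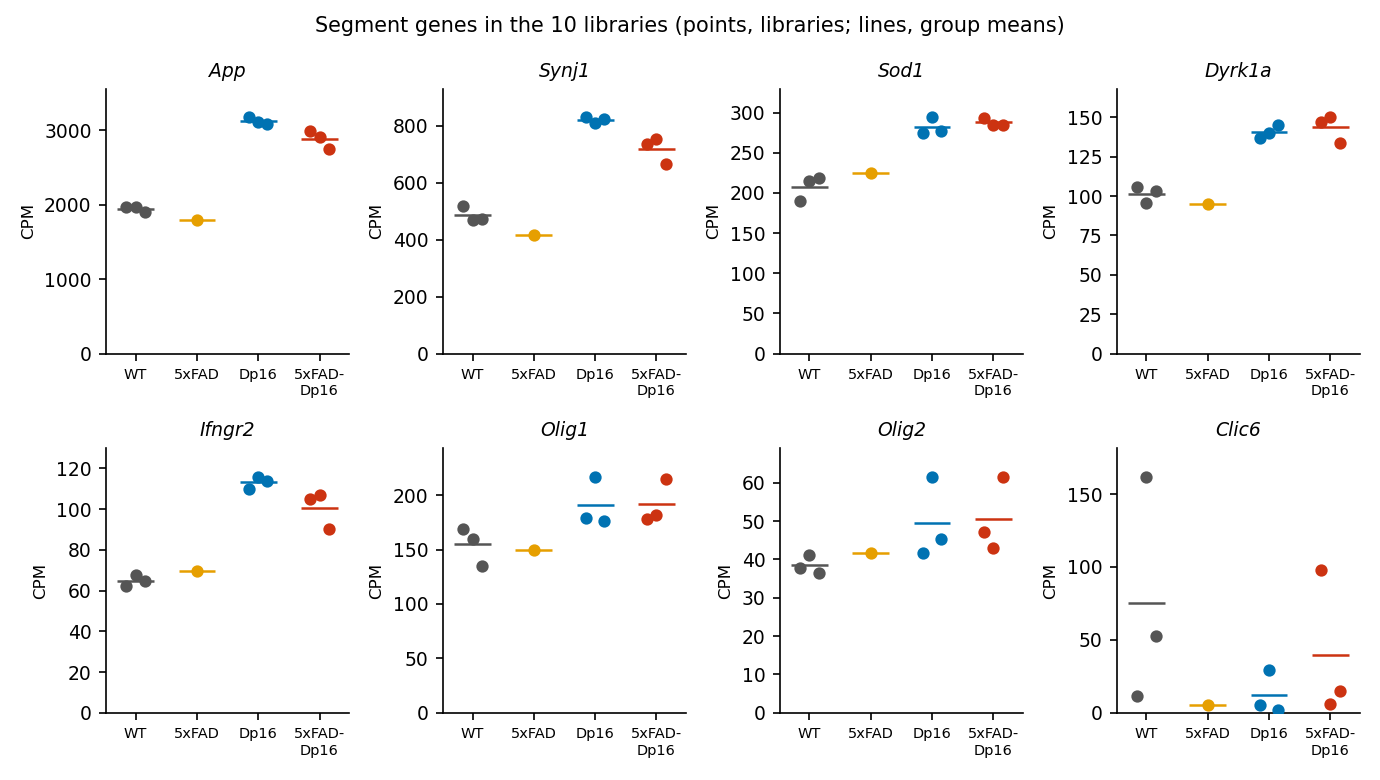
CPM (vertical axes, from 0) of 8 segment genes in the 10 libraries, by group. Points are libraries and lines group means. App, Synj1, Sod1, Dyrk1a, Ifngr2 and Olig1 show every carrier above every non-carrier, Olig2 and Clic6 overlap, and Clic6 reaches 162 CPM in WT replicate 7.

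Of the adhesion genes 4 of 7 tested were called. Dscam, a cell adhesion receptor of neurons, rose by 0.69 ± 0.0624 (adjusted p = 1.88e-05), and Jam2, a junction protein, by 0.74 ± 0.0655 (adjusted p = 1.86e-05). Chaperone and ubiquitin genes had 8 of 11 called. Cct8, a subunit of the chaperonin that folds actin and tubulin, stood at 155, 143, 149 and 150 CPM in the non-carriers and between 209 and 242 in the carriers (log2 fold change 0.62 ± 0.051, adjusted p = 1.3e-05). Ttc3, a ubiquitin ligase, rose by 0.58 ± 0.0522, and Wrb, a receptor for tail-anchored proteins, by 0.68 ± 0.0597 (adjusted p = 1.88e-05 and 1.86e-05). Of the metabolic genes 7 of 9 were called. Sod1 had the highest level per length of the segment genes described here (398 RPKM, App 313) and rose by 0.41 ± 0.0529 (1.33-fold, adjusted p = 0.000464). It stood at 190, 215, 218 and 225 CPM in non-carriers and at 274 to 294 in carriers, and its 95% interval, 0.30 to 0.52, lies below 1.5-fold.

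Of 18 transcription and chromatin genes 8 were called and 17 were positive. Gabpa and Ets2, factors of the ETS family, rose by 0.69 ± 0.0922 and 0.58 ± 0.0552 (adjusted p = 0.000661 and 2.82e-05), Brwd1 by 0.60 ± 0.069 and Hmgn1, a nucleosome-binding protein, by 0.52 ± 0.0542 (adjusted p = 0.000141 and 4.83e-05). The oligodendrocyte factors Olig1 and Olig2 did not pass in edgeR, though Olig1 did with DESeq2 (adjusted p = 0.0211) and without a filter on low counts (0.00376). Olig1 lay at 169, 160, 135 and 150 CPM in the non-carriers and at 176 to 217 in the carriers, free of overlap, with a log2 fold change of 0.32 ± 0.0824 (adjusted p = 0.128). Its 95% interval, 0.14 to 0.49, does not reach 1.5-fold. Olig2 had 0.33 ± 0.125 (adjusted p = 0.332) and Bach1, a repressor of heme oxygenase, 0.36 ± 0.115 (adjusted p = 0.228), both with overlap. Bach1 passed with all 16 libraries (0.45, adjusted p = 0.00799; 0.48 and 0.00357 with the thalamus score as a term) and with the choroid plexus score as a term (0.47, 0.0401). Runx1 was weak (0.33 ± 0.194, adjusted p = 0.572). Markers of mature oligodendrocytes, which share a lineage with Olig1 and Olig2, had a median of 0.11, and those of precursors -0.2. Both lists had 0 called, against 0.309% of all genes outside the segment. The mature markers had a median of -0.08 in Dp16 against WT and 0.56 in 5xFAD-Dp16 against the single 5xFAD library. Their scores were 6.5 to 7.19 in carriers and 6.45 to 6.93 in non-carriers, lowest in 5xFAD replicate 10. The part of mature cells and precursors in the values of Olig1 and Olig2 was not tested. In bulk tissue, fewer cells of a type and less RNA per cell cannot be told apart.

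Channels and receptors had 1 of 6 called, Kcnj6, a potassium channel opened by G proteins, which rose by 0.86 ± 0.0825 (adjusted p = 3.11e-05), from 44.1, 41, 37.4 and 28.4 CPM to between 54.9 and 75.6. Together with C2cd2 (0.91) and Dnajc28 (0.85) it had the largest fold changes among the called segment genes. Grik1, a kainate receptor subunit, overlapped (0.50 ± 0.135, adjusted p = 0.134). It passed with DESeq2 (adjusted p = 0.0362), without a filter on low counts (0.0082), in WT against Dp16 alone (0.75, adjusted p = 0.0345), with all 16 libraries (0.65, 0.00987; 0.69 and 0.00214 with the thalamus score as a term) and without 5xFAD replicate 10 (0.75, 0.0124). Clic6 and Kcne2, both of the choroid plexus, went the other way without passing: Clic6 ran from 2.11 to 98 CPM in the carriers and from 5.1 to 162 in the non-carriers (-1.58 ± 1.76, adjusted p = 0.811). All 16 tested choroid plexus markers outside the segment had negative fold changes in this set, with a median of -2.06 and 0 called; within the WT and Dp16 libraries the median was -3.15 and within the transgenic ones 2.64, and with the choroid plexus score as a further term the log2 fold change of Clic6 was 0.34 (adjusted p = 0.421). Of the antiviral genes Mx1 and Mx2, Mx1 had too few counts to be tested, and Mx2 lay at or under 2.43 CPM in every library and did not pass (adjusted p = 0.441).

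Outside the segment 50 of 16186 genes were called (0.309%), 18 higher and 32 lower. Of these, 37 had no overlap between carriers and non-carriers, a pattern that 0.568% of all genes outside the segment show in the higher and 0.939% in the lower direction. The 50 genes were called on these same libraries, so their separation follows in large part from the calls and is no separate evidence. Of the 50, 11 were called in each of the 10 fits that leave out 1 library. The 11 are Slc5a5, Lcat, Rida, Ucma, agouti and Gm48678, higher in the carriers, and Cbs, Grin2c, Myoc, Tbx1 and Rec8, lower. With all 16 libraries 14 of the 50 were called, and the calls of Lcat (0.39, adjusted p = 0.141), Rida (0.24, 0.281), Ucma (0.81, 0.15) and Myoc (-0.94, 0.0582) among the 11 were lost. The number called was 23 without 5xFAD replicate 10, 26 without Dp16 replicate 12, 28 without WT replicate 16, 32 without 5xFAD-Dp16 replicate 9 and 107 without Dp16 replicate 5. Of 396 tested genes of chromosome 16 outside the segment, 4 are among the 50, set against the 0.309% called over all outside genes. They are Lztr1, higher, and Tbx1, Slc15a2 and Emp2, lower.

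Agouti (gene symbol a, chr2:154791402-155051012), a signalling protein known for control of coat colour, was the gene outside the segment with the smallest p (adjusted p = 2.14e-05). It had 0 CPM in the 3 WT libraries and 0.0395 in 5xFAD replicate 10, and between 1.34 and 3.21 CPM in the carriers. In reads, the carriers had 274 and the non-carriers 1, a ratio per depth of 180 with a 95% counting interval of 32 to 7130 that covers counting error alone. The labels name the strain for the wild-type mice alone. For agouti and the other genes called outside the segment, the duplication and strain background therefore cannot be told apart. Slc5a5 (chr8:70882889-70892757), the sodium iodide transporter, was higher by 0.69 ± 0.0715 (adjusted p = 4.83e-05). It stood at 26.2, 27.1 and 25.1 CPM in WT, 24.2 in 5xFAD replicate 10, 45.1, 39.8 and 46.5 in Dp16 and 35.4, 38.3 and 34.9 in 5xFAD-Dp16, with no overlap. Lcat, which esterifies cholesterol on lipoproteins, was higher by 0.60 ± 0.0836 (adjusted p = 0.000866), at 28.2, 32.4, 27.5 and 34.3 CPM in the non-carriers and 42.1 to 54 in the carriers.

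Cbs (chr17:31608894-31637238), cystathionine beta-synthase, was the called gene with the smallest p among those that fell. It is the first enzyme of the route from homocysteine to cysteine, and its human counterpart lies on chromosome 21 while the mouse gene lies on chromosome 17, outside the duplication. Its levels were 31.9, 28.7 and 27 CPM in WT, 25.8 in 5xFAD replicate 10, 16.5, 16.6 and 15.9 in Dp16 and 19.4, 18.5 and 17.9 in 5xFAD-Dp16. The groups were apart, and the log2 fold change was -0.72 ± 0.0876 (adjusted p = 0.000275). It was the only called gene of both lists that hold it: 1 of 45 tested chromosome 21 orthologs on chromosomes 10 and 17 (list median 0.03) and 1 of 22 genes of sulfur amino acid metabolism (list median -0.04).

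Other genes that fell, with their known roles, were as follows. Grin2c, a glutamate receptor subunit found in astrocytes, fell by 0.47 ± 0.0666 on the log2 scale (adjusted p = 0.00103), from 53.5, 52.9, 60.2 and 66.7 CPM in the non-carriers to between 37.1 and 50.6 in the carriers. Mfge8, a secreted protein that bridges dying cells and phagocytes, fell by 0.77 ± 0.107 (adjusted p = 0.00528), from 215 to 247 CPM to between 114 and 177. Fgfr3, a growth factor receptor, fell by 0.40 ± 0.0688 (adjusted p = 0.00814), from 102 to 118 CPM to 71.9 to 90.9. Neither pair of ranges overlapped, but without 5xFAD replicate 10 the adjusted p was 0.0874 for Mfge8 and 0.107 for Fgfr3. Myoc, myocilin, fell by 0.94 ± 0.121 (adjusted p = 0.000661), and Heyl, a factor of the Notch pathway, by 1.25 ± 0.203 (adjusted p = 0.00507, 0.129 without 5xFAD replicate 10). Of the 15 astrocyte markers only Fgfr3 was called, and the list median was -0.03, with scores of 7.76 to 8.08 in carriers and 7.79 to 8.13 in non-carriers.

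Tbx1, a developmental factor, and Rec8, a cohesin subunit of meiosis, were low in the carriers. Tbx1 was at 1.92, 1.61, 1.93 and 2.21 CPM in the non-carriers and 0.159 to 0.517 in the carriers (-2.51 ± 0.32, adjusted p = 0.000418). Rec8 was at 1.89 to 3.18 and 0.31 to 1.13 CPM (-1.96 ± 0.29, adjusted p = 0.0019). Lcn2, a secreted protein of reactive glia, was higher by 2.95 ± 0.443 (adjusted p = 0.00209). Its values were 0.12, 0.276 and 0.041 CPM in WT, 0.514 in 5xFAD replicate 10, 0.413 to 1.47 in Dp16 and 3.46 to 5.6 in 5xFAD-Dp16; Dp16 replicate 5 lay below 5xFAD replicate 10, and without that 5xFAD library the adjusted p was 0.0555. C4b, a complement gene whose reads may be shared with its near copy C4a, was higher by 0.58 ± 0.108 (adjusted p = 0.0394), a call lost in 7 of the 10 fits that leave out 1 library; it lay at 66.4 to 69.6 CPM in WT, 82.4 to 128 in Dp16, 260 in 5xFAD replicate 10 and 321 to 378 in 5xFAD-Dp16. Rps23 and Rps27 have near-identical copies in the genome and are uncertain for the same reason. H1f4, a histone gene, was higher by 1.39 (adjusted p = 0.00859), a call lost without 5xFAD replicate 10 (1.31, adjusted p = 0.0772).

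**Figure D4:**
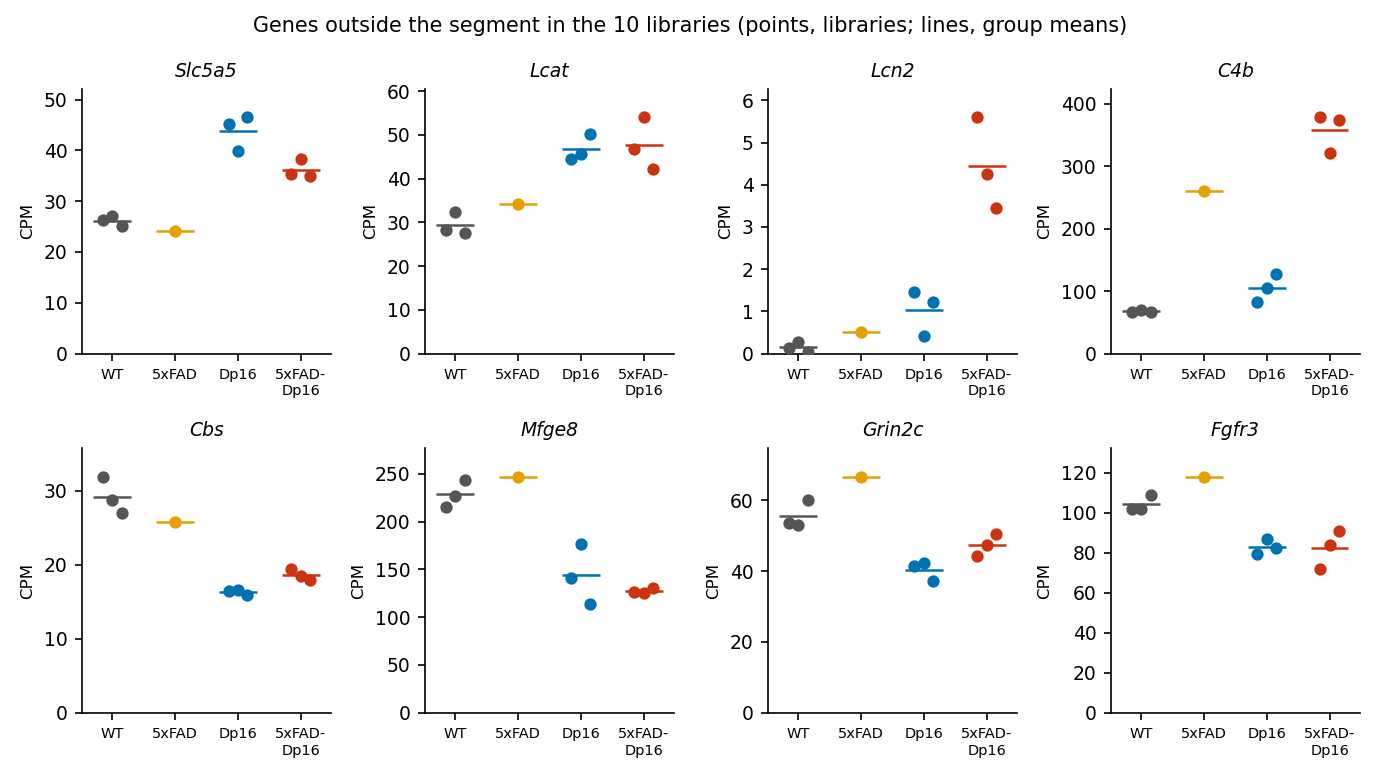
CPM (vertical axes, from 0) of 8 called genes outside the segment in the 10 libraries, by group. Points are libraries and lines group means. Slc5a5 and Lcat are higher and Cbs, Mfge8, Grin2c and Fgfr3 lower in every carrier than in every non-carrier, while Lcn2 and C4b overlap.

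The promoters of 3 of these outside genes and of 1 segment gene are shown because genes of the segment encode transcription factors whose binding letters can be looked for next to the start. Each is 300 bases (250 before and 50 after the RefSeq start, GRCm38.p6), 5′ to 3′ on the gene's strand; capitals mark a match on either strand to CCGGAAG (ETS family), TGTGGT (RUNX family) or TGAGTCA (BACH1). Agouti lies at chr2:155013320-155013619 on the plus strand and holds 1 RUNX match, Slc5a5 at chr8:70892708-70893007 and Cbs at chr17:31637156-31637455 on the minus strand hold no match, and Cct8 at chr16:87495820-87496119 on the minus strand holds 1 ETS match.
agouti: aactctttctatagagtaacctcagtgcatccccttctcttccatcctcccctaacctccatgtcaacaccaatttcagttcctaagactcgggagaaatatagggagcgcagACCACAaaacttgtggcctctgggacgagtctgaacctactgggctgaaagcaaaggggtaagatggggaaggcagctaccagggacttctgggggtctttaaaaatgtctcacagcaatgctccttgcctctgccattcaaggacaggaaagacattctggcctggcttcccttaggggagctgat
Slc5a5: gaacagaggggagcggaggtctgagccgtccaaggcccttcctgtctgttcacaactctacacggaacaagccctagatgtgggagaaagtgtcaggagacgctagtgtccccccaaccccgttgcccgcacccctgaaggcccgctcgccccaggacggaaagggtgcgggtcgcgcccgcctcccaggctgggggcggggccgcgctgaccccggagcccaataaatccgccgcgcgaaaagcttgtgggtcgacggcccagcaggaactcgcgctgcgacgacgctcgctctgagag
Cbs: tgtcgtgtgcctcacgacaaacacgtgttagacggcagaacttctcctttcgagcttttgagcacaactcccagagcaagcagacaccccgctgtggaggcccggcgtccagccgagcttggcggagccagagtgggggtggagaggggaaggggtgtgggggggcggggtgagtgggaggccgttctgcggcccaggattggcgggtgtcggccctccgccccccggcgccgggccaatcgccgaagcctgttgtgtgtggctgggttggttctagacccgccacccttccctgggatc
Cct8: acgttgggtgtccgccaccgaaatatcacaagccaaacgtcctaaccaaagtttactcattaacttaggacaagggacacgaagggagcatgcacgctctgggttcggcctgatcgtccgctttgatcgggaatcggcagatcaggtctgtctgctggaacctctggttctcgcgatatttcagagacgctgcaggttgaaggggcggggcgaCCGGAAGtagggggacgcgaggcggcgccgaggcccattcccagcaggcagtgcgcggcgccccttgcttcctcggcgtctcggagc
An ETS match was present in 10 of 45 called segment promoters (22.2%), 1 of 14 promoters of genes called higher elsewhere (7.14%) and 1 of 28 of those called lower (3.57%), against 17.6% of the 11975 promoters of all tested genes. A RUNX match was present in 6 of 45 (13.3%), 5 of 14 (35.7%) and 4 of 28 (14.3%), against 14.7% of all. A BACH1 match was present in 1 of 45 (2.22%), 1 of 14 (7.14%) and 2 of 28 (7.14%), against 4.43% of all. The letters are a description of these windows.

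The 6 libraries left out share no sample with the 10 and were not used to call any gene. In edgeR no gene passed in these 2 carriers against 4 non-carriers, with 539 genes at an unadjusted p under 0.05, among them 57 segment genes. The segment median was 0.56, and 99 of 105 tested segment genes were positive. Of the 49 called segment genes, 44 (89.8%) had both left-out carriers above all 4 left-out non-carriers, against 6.04% of all genes outside the segment. Of the 50 outside genes, 14 of 18 called higher were positive (77.8%, against 48.1% of all outside genes) and 25 of 32 called lower were negative (78.1%, against 51.9%), but their median fold changes, 0.16 and -0.13, were smaller than the 0.55 and -0.51 of the 10 libraries. In the same direction, 4 of the 18 (22.2%) and 7 of the 32 (21.9%) had the left-out carriers and non-carriers apart, against 6.04% and 6.57% of all outside genes.

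Which outside genes held their size differed from gene to gene. Slc5a5 was at 37.2 and 40.6 CPM in the left-out carriers and at 23.2 to 26.4 in the non-carriers (0.64 ± 0.131 on the log2 scale). Cbs was at 21.3 and 17.7 against 28.6 to 32.6 CPM (-0.72 ± 0.139), and agouti at 1.65 and 1.27 against 0 to 0.0703 CPM. For these 3 genes both the order and the separation were as in the set. The limit on strain background holds in the left-out libraries as well. Tbx1 and Rec8 were also apart, with smaller differences (-1.07 ± 0.439 and -0.83 ± 0.342). Mfge8 (-0.13 ± 0.2), Grin2c (-0.13 ± 0.157), Lcat (0.26 ± 0.22) and Lcn2 (0.22 ± 0.786) overlapped, and Heyl was positive (0.55 ± 0.247). Fgfr3 was apart by a narrow margin, at 122 and 114 CPM against 125 to 130 (-0.11 ± 0.128), and Ddo, called higher in the set, was apart in the other direction (-0.33 ± 0.223).

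**Figure D5:**
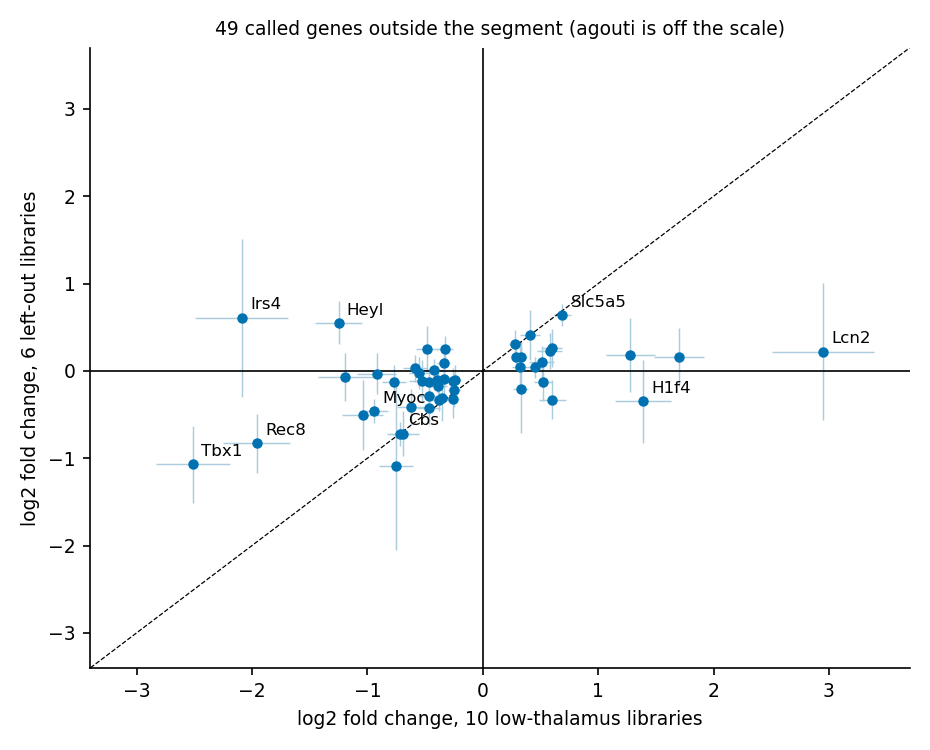
Log2 fold change of carriers over non-carriers in the 10 libraries (horizontal axis) against that in the 6 left-out libraries (vertical axis) for 49 called genes outside the segment; agouti is off the scale. Bars are standard errors and the dashed line marks equal values. Slc5a5 and Cbs lie near the dashed line, while Lcn2 and Heyl lie away from it.

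Pathways that the segment's products act in were looked at as lists of single genes, with 0 called in every list of this paragraph. Over all genes outside the segment 0.309% were called. In lists of 15 to 54 genes, 0 calls is near that share and is no result about these pathways. The background outside the segment was 47.3% positive and 52.7% negative. Of 54 interferon response genes 40 were positive, with a median of 0.10; Stat2, a signal carrier of the receptor, had 0.31 ± 0.0906 (adjusted p = 0.172) and Nmi -0.55 ± 0.145 (adjusted p = 0.128). The 15 antigen presentation genes had a median of -0.12. Of 19 heat shock genes 17 were positive (median 0.13), of 24 cholesterol synthesis genes 18 (median 0.09; Hmgcs1, which feeds the pathway, 0.26 ± 0.0564, adjusted p = 0.0556, and 0.00299 to 0.048 in the 7 alternatives under which it passed), and of 34 synaptic genes 28 (median 0.08). Of 43 oxidative phosphorylation genes 36 were negative (median -0.07), and of 20 immediate early genes 13 (median -0.06).

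The cell type lists were described in the same way, with 0 called in each except astrocytes, against 0.309% of all genes outside the segment. With the transgenes as a covariate, the median log2 fold change was -0.22 over 16 homeostatic and -0.25 over 29 plaque-associated microglia markers, while the mean scores, not adjusted for the transgenes, were 5.36 and 4.28 in carriers and 5.27 and 3.93 in non-carriers. Against the single 5xFAD library the medians of 5xFAD-Dp16 were -0.39 and -0.44, while in Dp16 against WT they were -0.04 and -0.01. All 14 meningeal fibroblast markers were negative (median -0.82), with scores of 3.03 to 3.52 in the carriers and 3.16 to 4.98 in the non-carriers, highest in WT replicate 7. All 6 blood markers were positive (median 0.85), 9 of 11 ependymal markers were positive (median 0.52) and 10 of 12 striatum markers were negative (median -0.34). For each of these lists the scores of carriers and non-carriers overlapped. In Dp16 against WT the medians were 0.52, 0.14 and -0.07. Against the single 5xFAD library those of 5xFAD-Dp16 were 1.27, 1.3 and -0.26. In the left-out libraries they were -0.19, -0.77 and -0.05, and 0.11 for the meningeal fibroblast markers. Within the set, medians were -0.18 for endothelial and -0.21 for mural cells, 0.03 for cortex and subiculum, -0.09 for dentate granule cells, 0.13 for CA1 and CA3 pyramidal cells and 0.06 for inhibitory neurons. With a choroid plexus score as a further term, 48 of the 49 segment calls stood and 10 of the 50 outside calls were lost, while all 50 kept their sign.

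Whether the effect of the duplication differed with the transgenes was tested as an interaction in edgeR, in which the 1 library of 5xFAD is assumed to vary like the others. It called 14 genes (0.086%), and 0 of the segment, where the median difference was 0.05 and 9 genes had an unadjusted p under 0.05. The median effect over the segment was 0.56 in Dp16 against WT and 0.62 in 5xFAD-Dp16 against 5xFAD. For App both effects were 0.68, for Dyrk1a they were 0.47 and 0.60, for Ifngr2 0.81 and 0.53, and for Kcnj6 0.78 and 1.02, and the interaction passed for none of these 4 (adjusted p = 0.998, 0.701, 0.411 and 0.577). All 14 called genes rest on 5xFAD replicate 10. Hap1, a huntingtin-associated protein, lay at 305 CPM there and at 117 to 162 in the other 9 libraries, and Dlk1 lay at 43.1 against 12.9 to 27.2 CPM. With the 16 libraries of the series, edgeR called 0 genes for this difference, with 1095 at an unadjusted p under 0.05.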

How the data were processed

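RNA from the hippocampus of mice was extracted with TRIzol and made into strand-specific poly(A) libraries, read as pairs, per the labels' protocols. Tools listed in the submitters' processing notes are HTSeq 0.6.1, HISAT2 2.1.0, bcl2fastq, SAMtools 1.5 and FastQC 0.11.5, with GRCm38 as the build; the role of each, the strand setting and the treatment of reads with several positions are not given in the sources used here. The authors deposited raw read counts per gene, which were used for every test, and RPKM values, which equal the count divided by the column total and 1 length per gene and were used only for levels per length.

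Counts were analysed with edgeR 4.0.16 (R 4.3.3): filterByExpr by carrier status with a minimum count of 10, TMM scaling (factors 0.977 to 1.02), a robust quasi-likelihood fit with terms for the duplication and the transgenes, and Benjamini-Hochberg adjustment over 16284 genes. DESeq2 1.42.0 was an alternative. CPM values are TMM-scaled; list scores are mean log2 CPM with a prior count of 2, without segment genes. Scripts were tested on simulated data. Whether libraries are separate animals rests on the design text, and p-values measure the spread between these libraries.

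Positions come from GENCODE M21, matched by identifier without version, while the count table is named for M24; 55144 of 55385 genes were placed. Promoters come from RefSeq (GRCm38.p6) by symbol, for 11975 of 16274 tested symbols. The libraries, gene lists and tests were chosen with earlier results of these data known. Genes were named by a rule: the 8 segment genes of smallest p, the 8 of lowest fold change whose mean log2 CPM is at least 3, up to 10 called genes outside it in each direction, a fixed list of segment genes with Cbs and Thy1, and the leading members of each list. C2cd2, Dnajc28, Gabpa, Ets2, Kcne2, C4b, Rps23, Rps27, Emp2, Ddo, Gm48678 and the genes of the interaction fall outside this rule and were chosen after their values were seen.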

Additional observations from a re-analysis of the deposited data

Results flagged for a closer look

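A library that stood far from the rest of its group was looked for in 136 groups of values and found in 7, where chance gives about 1 in 20. That rate is a rough guide only, because the groups of values share the same libraries. Ifngr2 had a log2 CPM of 6.5 in 5xFAD-Dp16 replicate 11, against 6.72 to 6.86 in the other carriers, and it stayed above every non-carrier. Agouti stood at -2.95 in 5xFAD replicate 10, which is 1 read, against -3.47 in the WT libraries. Among the 4 non-carriers, 5xFAD replicate 10 also stood apart for Heyl (3.55, against 2.63 to 2.78), for Thy1 (11.43, against 9.41 to 9.59) and for the scores of homeostatic microglia (6.25, against 4.92 to 4.99) and plaque-associated microglia (5.77, against 3.16 to 3.51). It is the 1 non-carrier with the transgenes. The cortex and subiculum score of WT replicate 7 was 4.86, against 4.98 to 5.01.

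The interaction term, which rests on 1 library of 5xFAD (replicate 10), passed for 14 genes, and edgeR called 0 for it with all 16 libraries (1095 at an unadjusted p under 0.05). The difference on the log2 scale was -2.83 for AW551984, -1.31 for Hap1, -1.46 for Myh7, -1.36 for Cdh4, -1.46 for Dlk1, -0.68 for Scg2, -0.79 for Lypd1, -2.06 for Esr1, -0.88 for Trp53i11, -0.83 for Cdh13 and -0.88 for Hpcal1. It was 1.44 for Pls1, 1.22 for Zcchc7 and 1.21 for Malat1.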

How the results depend on the processing

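The segment median stayed between 0.52 and 0.57 and 45 to 61 segment genes were called under every alternative run on the 10 or 16 libraries. In the 6 left-out libraries alone, an alternative chosen after seeing the data, the median was 0.56 and the calls were 0 higher, 0 lower, 0 in the segment and 0 outside it in edgeR (539 at an unadjusted p under 0.05). The counts outside the segment depended on the settings. DESeq2 called 155 genes higher, 135 lower, 229 outside the segment and 177 for the interaction, and without a filter on low counts the numbers were 126, 126, 193 and 391. Without the transgene term 20 genes were called lower and 29 outside the segment, and in WT against Dp16 alone 13 and 27. The interaction called 0 genes with all 16 libraries (1095 at an unadjusted p under 0.05, edgeR). Leaving out 1 library gave 55 to 88 genes higher, 13 to 69 lower, 45 to 51 in the segment, 23 to 107 outside it, and 5 to 24 for the interaction, which cannot be had without 5xFAD replicate 10. The number called lower was 52 without WT replicate 2, 17 without WT replicate 16, 20 without Dp16 replicate 3, 69 without Dp16 replicate 5, 13 without Dp16 replicate 12, 20 without 5xFAD-Dp16 replicate 8, 17 without 5xFAD-Dp16 replicate 9 and 14 without 5xFAD replicate 10. The interaction had 7 calls without WT replicate 2, 24 without WT replicate 16, 8 without Dp16 replicate 3, 5 without Dp16 replicate 12, 7 without 5xFAD-Dp16 replicate 8 and 9 without 5xFAD-Dp16 replicate 11. The cause was not tested. Among the named genes that were called in the 10 libraries, 4 changed sign in the 6 left-out libraries: Rida (-0.13), H1f4 (-0.35), Heyl (0.55) and Ptch1 (0.09). Changes of sign in named genes that were not called are not in this count. No paired analysis was possible because each replicate number belongs to 1 library of the series. Segment genes with a mean log2 CPM under 3 were not called at this depth.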
